A study of Homo sapiens with 12 samples.

Results

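CAOV3 is a human cell line established from high-grade serous ovarian carcinoma, and the untreated state of these cells is described here across all genes counted. The members are the 3 libraries labelled as control, of 12 libraries in the series. The series asked how ascites, the abdominal fluid of ovarian cancer, and bezafibrate, a fibrate drug that activates PPAR receptors, act on these cells. The other 9 libraries received those agents and are not used here. The control cells carried the WT genotype of the labels, were grown in DMEM with 10% FBS and antibiotics, and received DMSO, the drug's solvent, so they were untreated with ascites or drug but not free of solvent. No treatment time is listed for them. The labels do not say whether the 3 replicates were separate cultures, so each SD below (n = 3 libraries) measures the spread between these libraries, which may be technical. The line grows as a culture of its own, without stroma or blood vessels.

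A cell's baseline transcriptome is divided very unequally between genes. Transcripts for translation, the cytoskeleton and glycolysis take a large share in most dividing cells, while the genes that tell lineages apart, mostly transcription factors, keratins, adhesion molecules and secreted products, are read as much by their absence as by their level. High-grade serous carcinoma is usually recognised by genes of the Müllerian duct, the embryonic source of the fallopian tube and uterus: the transcription factors PAX8, SOX17 and WT1, the mucin MUC16 that carries the CA125 epitope, WFDC2 (the serum marker HE4), folate receptor FOLR1 and several kallikrein-related peptidases. Gut and liver epithelium is instead built by HNF4A, CDX2 and FOXA factors and carries adhesion and brush border proteins such as CDH17 and VIL1.

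Total counts were 14653487, 13554634 and 12550494 in replicates 1, 2 and 3, and between 14328 and 14457 of the 19677 listed genes had a count in a given library. Levels are CPM, counts divided by the library total and scaled to 1000000, averaged over the 3 libraries. CPM measures a share of counts and does not correct for transcript length, so "led" below refers to that share, and levels of different genes are set against each other only as CPM per kilobase (per kb), with the median length of each gene's GENCODE 29 coding transcripts. The SD of a per kb value holds the spread between libraries only and no error of the length, so each order per kb is for the lengths used. A gene is called expressed here at 1 CPM or more in each of the 3 libraries, undetected at 0 counts in all 3, and trace otherwise. In all, 11692 genes were expressed, which is 59.4% of those listed, 3589 were trace and 4396 (22.3%) were undetected. A count of 0 in all 3 libraries allows a level of up to 0.0736 CPM, counting error only. The median level was 7.39 CPM over all listed genes and 35.8 CPM over expressed genes.

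The libraries differed little from each other. The common biological coefficient of variation, estimated by edgeR over expressed genes, was 2.34%. The median CV of an expressed gene was 4.47%, and the median CV set by counting at the mean count was 4.54%. For genes at 100 CPM or more these medians were 2.36% and 2.06%. A CV taken from 3 libraries tends to fall below the true CV, so these medians do not show a spread within counting error. The counts of no library pair agreed within sampling noise, since chi-square per degree of freedom was 2.05, 1.61 and 1.44 for the 3 pairs, so each library was kept as a replicate. Of 9320 genes at 10 CPM or more, 11 differed by over 1.5-fold between the highest and the lowest library. RGPD6, RGPD8 and RGPD5, near-identical copies of a RANBP2-like gene, were among them, with RGPD6 at 37.2, 14.5 and 19.1 CPM in replicates 1 to 3. Summed, the 3 copies were at 83.5, 94.8 and 93.9 CPM (90.7 ± 6.31) and differed by 1.14-fold. Their total thus varied less than each copy alone, whose division of reads is uncertain. ZBED6, a transposon-derived transcription factor, was at 22.8 ± 7.07 CPM, lowest in replicate 1. FAM72D, a member of a family of near-identical genes, was at 14.5, 8.12 and 15.1 CPM.

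The most abundant transcripts were those of translation, the actin cytoskeleton and glycolysis. EEF1A1, the elongation factor that delivers aminoacyl-tRNA to the ribosome (GRCh38.p14 chr6:73515750-73521032), took the largest share of counts, at 11222.9, 11207.0 and 10998.0 CPM in the 3 libraries. ACTB, cytoplasmic actin, was at 6940.1, 6959.2 and 6875.0 CPM, and GAPDH of glycolysis was at 4961.8, 4841.5 and 4909.6 CPM. These 3 genes held the same order in every library, without overlap. Next by CPM came PKM (pyruvate kinase, 4317.9 ± 46.5), FLNA (filamin A, which crosslinks actin, 3988.3 ± 98.4), VIM (vimentin, 3791.8 ± 31.3), ACTG1 (3090.6 ± 37.6), EEF2 (the translocation factor, 3030.8 ± 50.2), KRT8 (keratin 8, 3014.8 ± 40.1) and FTH1 (ferritin heavy chain, 2979.6 ± 84.9). The last 4 lay within 1 or 2 SDs of a neighbour, so their order by CPM is not fixed by these data.

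Among the 30 genes with the highest CPM were 6 ribosomal proteins (RPS2, RPL13A, RPLP0, RPL4, RPL7 and RPL8), the translation factors EEF1G and PABPC1, and the chaperones HSP90AB1, HSPA8, HSP90AA1 and HSPD1. The splicing factors HNRNPA1 and HNRNPA2B1, the nucleolar protein NPM1, the tubulin TUBA1B, the glycolytic enzyme ENO1, the prolyl isomerase PPIA and the hydroxylase ASPH were there too, together with 1 secreted growth factor, IGF2. The 10 highest genes held 4.72% ± 0.0448 of all counts, the 100 highest 18.1% ± 0.133 and the 1000 highest 50.7% ± 0.101. In all, 87 genes exceeded 1000 CPM.

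Per kb, short transcripts moved up. FTH1 was at 3900.0 ± 111.1 CPM per kb, GAPDH at 3834.5 ± 47.1 and ACTB at 3821.6 ± 24.3, and these 3 did not differ beyond their spread. RPL30 at 3398.4 ± 129.2 and EEF1A1 at 3232.6 ± 36.4 CPM per kb came next. Of the 30 highest genes per kb, 18 were ribosomal proteins, against 6 by CPM, and 13 genes stood in both sets of 30. Of 86 ribosomal protein genes in the files, 82 were expressed (95.3%, against 59.4% of all listed genes). Together the 86 held 7.31% ± 0.140 of counts.

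**Figure D1:**
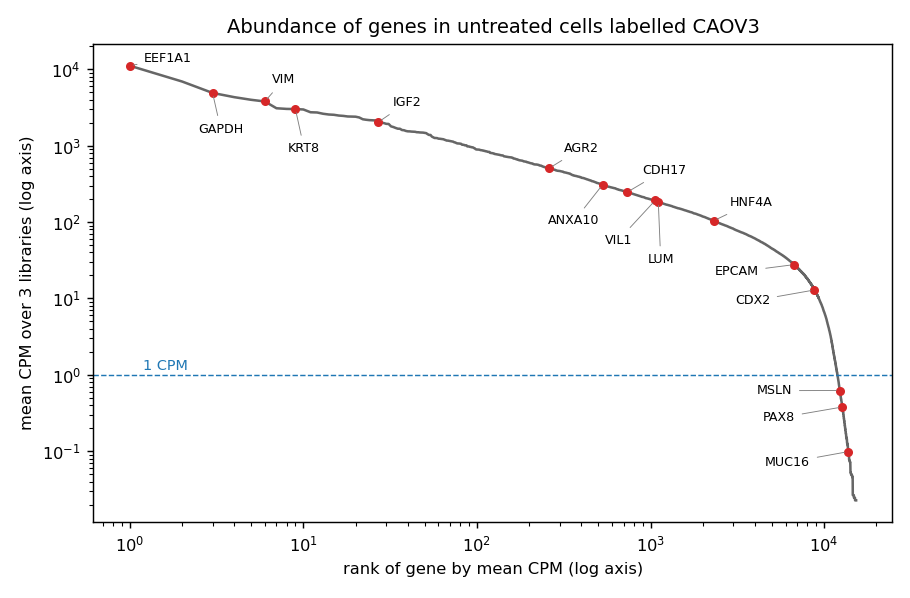
Genes with a count, ordered by mean CPM over the 3 control libraries (horizontal axis, rank on a log scale) against mean CPM (vertical axis, log scale), with named genes marked. EEF1A1 leads at 11142.6 CPM, HNF4A lies further along at 104.1 CPM, and PAX8 lies near its end at 0.379 CPM.

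Messenger RNAs of ribosomal proteins and elongation factors are known for a terminal oligopyrimidine (TOP) start, a C followed by a run of pyrimidines at the cap, which couples their translation to mTOR. Since these genes carry so much of the baseline library, the bases around the start are shown for abundant TOP genes and for GAPDH and PKM, which are not of this class. Each line gives 12 bases before and 18 from the first listed RefSeq start of the gene, 5′ to 3′ on the coding strand, on GRCh38.p14, and capitals mark a C at the start followed by at least 4 pyrimidines, with the run to its end.
EEF1A1: gccgtgaacgttCTTTTTCgcaacgggttt
EEF2: gacgtcagcgttCTCTTCCgccgtcgtcgc
RPL13A: caaaacctcctcCTTTTCCaagcggctgcc
RPLP0: cgggcgcgaggcCCTTCTCTCgccaggcgt
RPS3: cgcgagccacttCCTTTCCTTTCagcggag
RPL4: agcgggagtggtaagcacttccttttcctg
RPL3: aggccgaccggcctctaccggcgggatttg
GAPDH: gggtgcatccctgtccggatgctgcgcctg
PKM: cagtggctccttgcacagcagctgcacgcg
The window of EEF1A1 is chr6:73521015-73521044 on the minus strand and that of RPL13A is chr19:49487596-49487625 on the plus strand. The pattern stood at the listed start of 44 of 69 ribosomal protein genes with an entry in the RefSeq promoter table (63.8%), and at 1429 of all 35116 promoters in that table (4.07%). The ribosomal share counts the first listed start of each gene and the other share counts every promoter, so their units differ. RPL4 and RPL3 lack it at the position listed. In RPL4 a pyrimidine run stands a few bases downstream in the printed window. A match is a description of the sequence only, and translation was not measured in these libraries.

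The serous and Müllerian markers by which the labelled tumour type is usually recognised were mostly undetected or trace. Of 22 such genes, 5 were expressed (22.7%, against 59.4% of all listed genes), 8 were trace and 9 were undetected (40.9%, against 22.3%), with a median of 0.112 CPM. PAX8 (chr2:113215997-113278921) had 9, 6 and 1 counts in replicates 1, 2 and 3, or 0.379 ± 0.273 CPM. WT1 had 0, 4 and 1 counts, and MUC16 had 2, 0 and 2. Every library was therefore at the level of a few reads for these genes. SOX17, EMX2, which patterns the Müllerian duct, the progesterone receptor PGR and WFDC2 had no count in any library. The kallikrein-related peptidases KLK6, KLK7, KLK8, KLK10 and KLK11, a cluster of secreted proteases on chromosome 19, were undetected as well, and 0 of all 16 kallikrein-related genes were expressed.

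Surface proteins of this tumour type were trace, with 5, 11 and 9 counts of mesothelin (MSLN) and 3, 2 and 5 of FOLR1. The nuclear oestrogen receptor ESR1 was trace too, with 3, 1 and 2 counts. The 5 members expressed were the laminin receptor BCAM at 108.0 ± 2.50 CPM, the surface glycoprotein CD24 at 41.9 ± 1.55, the transcription factor MECOM at 39.0 ± 2.04, the cadherin CDH6 at 25.4 ± 1.65 and the homeobox gene MEIS1 at 19.9 ± 1.45. By most of these markers, though not by those 5, the libraries do not carry the profile usual for the labelled tumour type. They are called here only the control libraries labelled CAOV3. Markers of the ciliated cells of the tube were mostly at trace level too, with 2 of 10 expressed and the ciliogenesis factor FOXJ1 at 0.889 CPM. In bulk RNA, fewer cells of a type and less RNA per cell cannot be told apart.

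**Figure D2:**
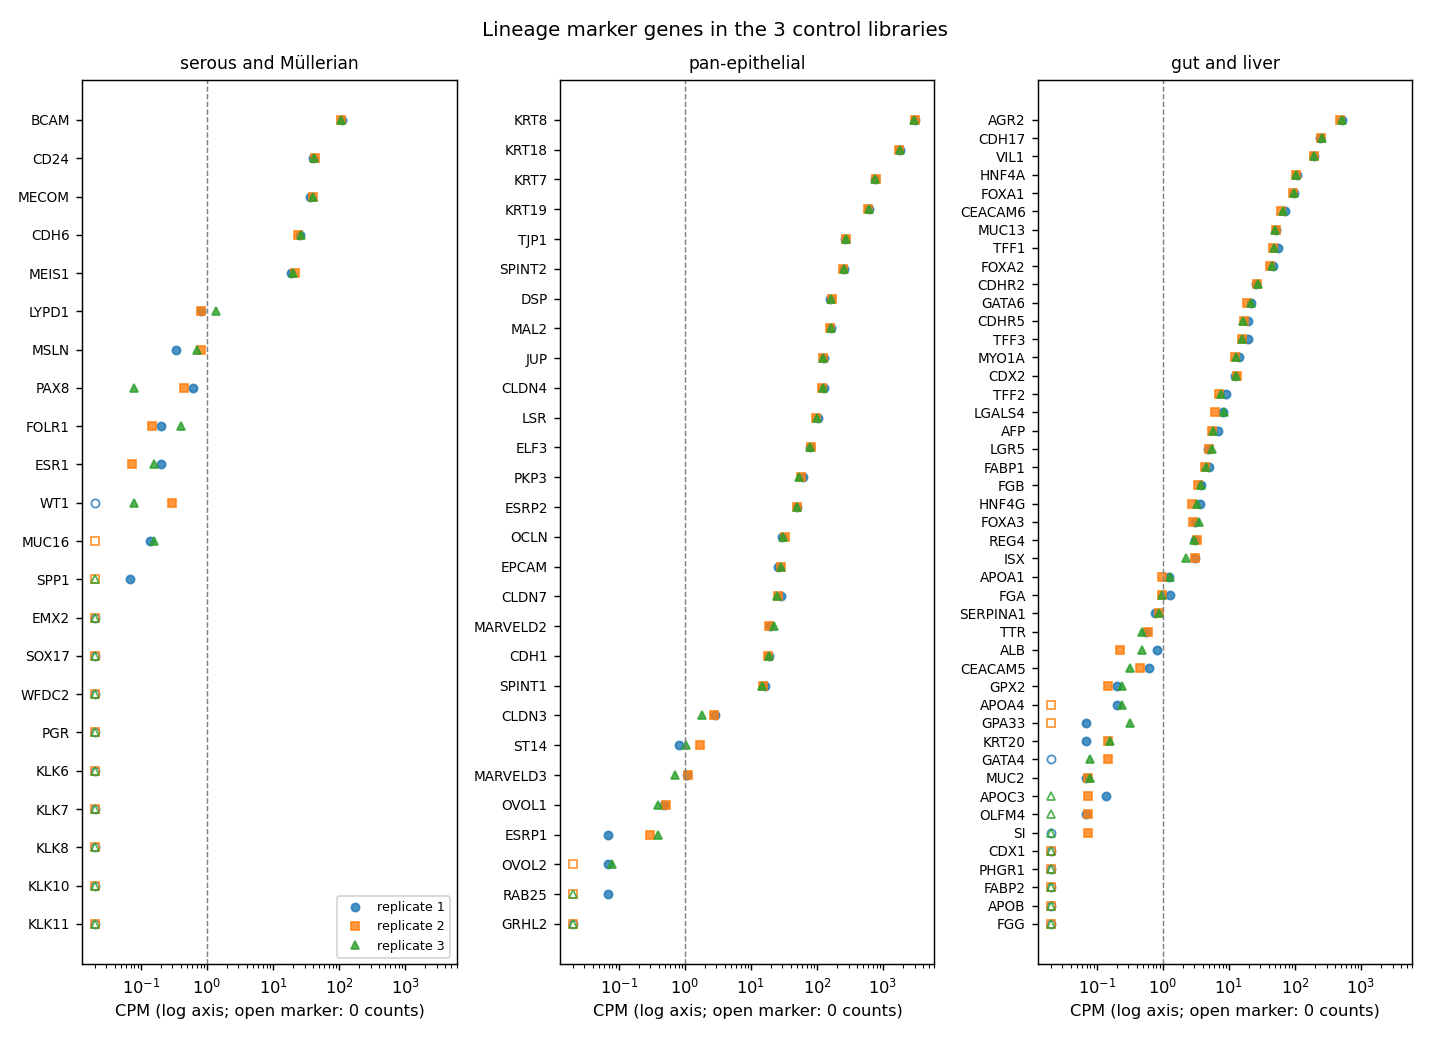
Level of lineage marker genes in each control library, in CPM on a log scale, with 1 point per library and 1 panel each for the serous and Müllerian list, the epithelial list and the gut and liver list drawn up after values were seen; open markers stand for 0 counts and the dashed line for 1 CPM. PAX8, WT1 and MUC16 lie under 1 CPM in every library, as do ALB, KRT20 and MUC2 of the gut and liver list, while AGR2, CDH17, VIL1 and HNF4A of that list lie above 100 CPM in every library.

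Epithelial genes were broadly present, with 21 of 29 markers expressed (72.4%, against 59.4% of all genes). The simple keratins led: KRT8 at 3058.8, 3005.5 and 2980.2 CPM, then KRT18 at 1799.8, 1768.1 and 1801.4, KRT7 at 764.6 ± 5.66 and KRT19 at 602.0 ± 11.7. Per kb the order of the keratins was the same, from 1601.9 ± 21.3 for KRT8 and 1145.8 for KRT18 to 710.6 ± 5.26 for KRT7 and 433.1 ± 8.44 for KRT19, and the libraries of neighbours did not overlap. The lengths used were 1076 bases for KRT7 and 1390 for KRT19. An error of length is not part of the spread between libraries, so this order holds only for the lengths used. Keratins of stratified epithelium were missing, since KRT5, KRT14 and KRT6A had no count. Of 55 keratin genes 38 were undetected (69.1%, against 22.3% of all listed genes). Tight junction and desmosome genes were expressed, among them TJP1 (270.8 ± 8.58 CPM), DSP (163.0 ± 7.42), JUP (125.1 ± 2.90) and CLDN4 (122.2 ± 4.09).

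The adhesion molecules by which carcinoma cells are usually recognised were expressed at low levels. EPCAM was at 25.5, 28.8 and 28.7 CPM. E-cadherin (CDH1) was at 18.7 ± 0.344 CPM, or 5.65 ± 0.104 per kb, far below the keratins on that scale. Of the epithelial splicing regulators, ESRP2 was at 49.2 ± 0.207 CPM and ESRP1 at trace level (0.254 CPM). GRHL2, a transcription factor that maintains epithelium, had no count in any library. The keratins and junction genes named with values above were expressed in every library.

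Genes of the mesenchymal state stood beside them. VIM, an intermediate filament protein of mesenchymal cells and of many lines grown on plastic, was at 3818.7, 3757.5 and 3799.2 CPM. Per kb it was at 2029.9 ± 16.7 against 1601.9 ± 21.3 for KRT8, a difference many times the SD of either. S100A4 was at 298.2 ± 6.57 CPM, fibronectin FN1 at 197.5 ± 3.96 and the repressor ZEB1 at 47.8, 51.0 and 45.4 CPM in the 3 libraries. N-cadherin (CDH2) was trace at 0.420 CPM, and TWIST1 and TWIST2 had no count. In all, 9 of 14 mesenchymal transition genes were expressed (64.3%, against 59.4% of all genes), a share near that of all genes. Vimentin and simple keratins were thus both abundant in all 3 libraries, while the cadherins of either state, CDH1 and CDH2, were low or trace.

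Several genes of gut and liver epithelium were expressed in every library. Within the marker list of other epithelial lineages, 8 of 26 genes were expressed (30.8%, below the 59.4% of all genes) and 9 undetected. The expressed members included the intestinal cadherin CDH17, at 242.1, 244.9 and 253.5 CPM. HNF4A (chr20:44355699-44434596), a nuclear receptor that directs hepatocyte and enterocyte genes, was at 108.0, 101.9 and 102.5 CPM. CDX2 (chr13:27960918-27969315), the homeobox gene of intestinal identity, was at 12.4, 13.4 and 12.9 CPM. The 3 libraries lay close together for each of these 3 genes, and none was at trace level in any library. Lung (SFTPB, SFTPC) and urothelial (UPK3A) genes on the list had no count, and GATA3, a factor of breast and urothelium, was at 21.8, 19.3 and 20.8 CPM.

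A longer list of 47 gut and liver genes was drawn up after these values were seen, so its counts support nothing and are given as a description. It had 27 members expressed (57.4%, near the 59.4% of all genes), 15 trace and 5 undetected, and its summed level was 1675.7, 1606.0 and 1662.0 CPM. AGR2, a disulfide isomerase of mucus-secreting cells, was at 517.5, 488.5 and 516.2 CPM, and the brush border protein VIL1 (chr2:218419123-218453295) was at 192.5, 192.3 and 190.7 CPM. The pioneer factors FOXA1 and FOXA2 were at 96.9 ± 2.25 and 44.6 ± 2.59 CPM, the mucin MUC13 at 50.9 ± 0.708 and the trefoil peptide TFF1 at 56.0, 46.1 and 47.6 CPM. Products of differentiated cells were divided. Albumin (ALB) was trace at 0.506 CPM, intestinal KRT20 at 0.125 and MUC2, the mucin of goblet cells, at 0.0739, and FABP2 and APOB had no count, nor did the intestinal regulator CDX1. The trefoil peptide TFF3 was at 17.1 ± 2.08 CPM, the lectin LGALS4 at 8.12, 6.12 and 8.29 CPM and the fibrinogen chain FGB at 3.63 ± 0.205 CPM. FABP1, a fatty acid binding protein of liver and gut, was at 4.58 ± 0.297 CPM and alpha-fetoprotein (AFP) at 6.03 ± 0.708 CPM. No cell type is named from this list.

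Markers of other cells that a culture could hold were mostly near 0. The shares expressed were 18.8% of leukocyte, 10.0% of endothelial, 11.1% of mesothelial and 40.0% of adipocyte genes, against 59.4% of all listed genes. Of 16 leukocyte genes, 3 were expressed and 8 undetected. PTPRC (CD45), which marks all leukocytes, the T cell genes CD3D and CD3E, and TYROBP had no count, while CD14 of monocytes was at 2.72 ± 0.130 CPM and CD79A of B cells at 2.24 ± 0.362 CPM. CD68, a lysosomal protein that many cell types make, was at 72.7 ± 2.17 CPM and made up most of the summed level of 77.3 to 81.2 CPM. Of 10 endothelial genes only ESAM, an adhesion molecule, was expressed, at 32.2 ± 2.81 CPM, while CDH5, KDR and TEK had no count and the list summed to 31.1 to 36.4 CPM. Of 9 mesothelial genes only desmin (DES) was expressed, at 1.45 ± 0.216 CPM, and the list summed to 2.59 to 2.73 CPM. Red cell and platelet genes summed to 1.11 to 1.84 CPM with 0 of 9 expressed, and muscle genes had 0 of 5 expressed. Of 5 adipocyte genes 2 were expressed, with the fatty acid binding protein FABP4 at 61.8 ± 1.32 CPM, and ADIPOQ and LEP, the adipocyte hormones, had no count.

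Fibroblast markers gave a mixed picture, with 6 of 14 expressed (42.9%, against 59.4% of all listed genes) and 5 undetected and a summed level of 242.2 to 253.7 CPM. Lumican (LUM, chr12:91102629-91111494), a collagen-binding proteoglycan, was at 184.8, 182.7 and 186.0 CPM and made up most of that level. The growth factor receptor PDGFRA was at 43.3 ± 3.96 CPM. Of the matrix genes, COL1A1 was at 6.25 ± 0.700 CPM, COL3A1 at 3.91 ± 0.197 and SPARC at 2.19 ± 0.442, DCN was trace at 0.0266 CPM, and COL1A2 and POSTN had no count. The protease FAP, the surface protein THY1 and the smooth muscle actin ACTA2 had no count either. Of 17 follicle and germ cell genes 5 were expressed, the highest of them LIN28B at 5.33 ± 1.03 CPM, and of its granulosa cell genes FOXL2 and FSHR had no count while AMH was at 3.09 ± 0.567 CPM and INHA at 1.36, 1.11 and 1.12 CPM. Of 9 neural, neuroendocrine and melanocyte genes 3 were expressed, with the tubulin TUBB3, common in cancer lines, at 250.3 ± 11.4 CPM, and SOX10 at 0.

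**Figure D3:**
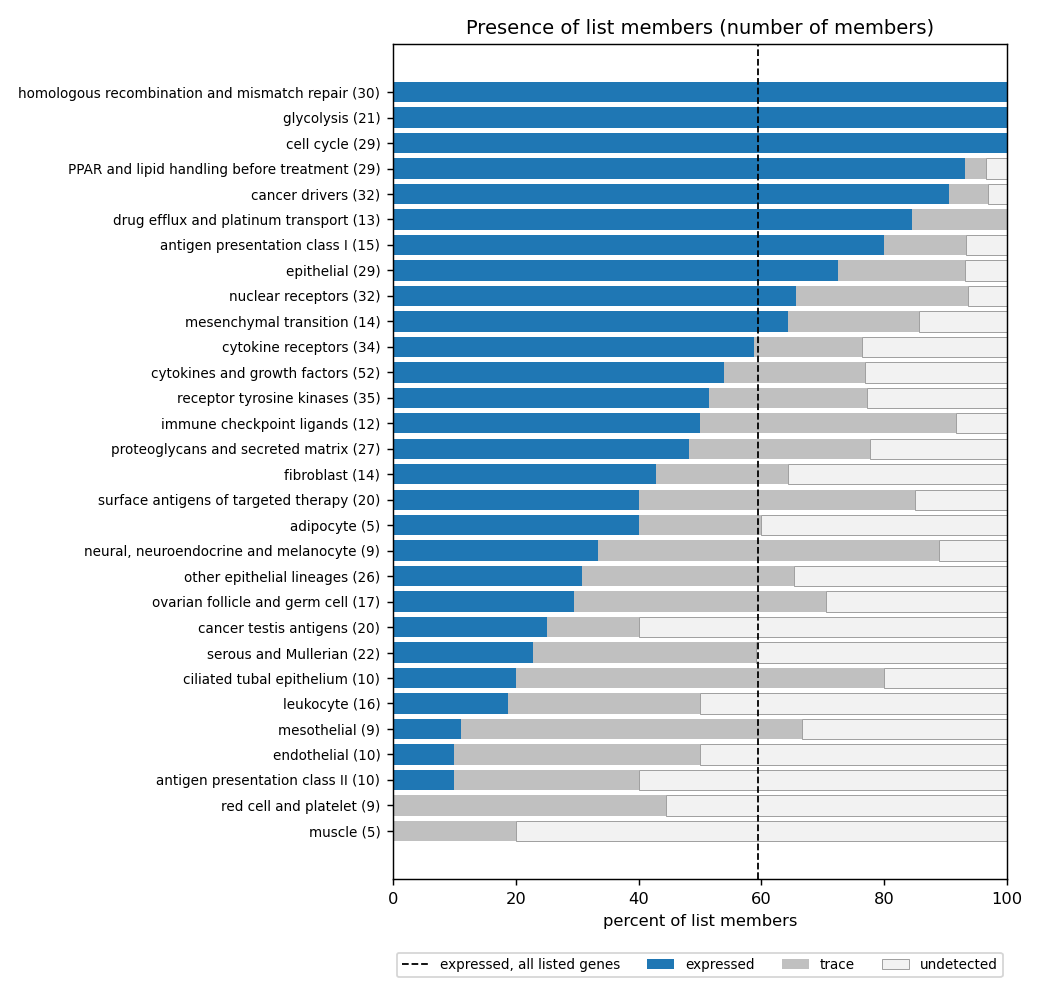
Share of marker and pathway lists that was expressed, trace or undetected in the 3 control libraries (horizontal axis, percent of list members), with a dashed line at the share expressed over all listed genes, 59.4%. Cell cycle, glycolysis and DNA repair lists are wholly expressed, and red cell, muscle, mesothelial and endothelial lists stand at the other end, with 11.1% or less of members expressed.

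HOX genes, which give cells their position along the body axis and are used in Müllerian patterning, were broadly active: 35 of 39 were expressed (89.7%, against 59.4% of all genes). All 11 genes of the HOXA cluster (chr7:27092993-27200091) and all 9 of HOXC were expressed, with 8 of 10 in HOXB and 7 of 9 in HOXD, and HOXB1 had no count. Summed by cluster, HOXA held 329.5 CPM, HOXB 251.2, HOXC 111.0 and HOXD 80.6. HOXA9, associated with tubal identity in the Müllerian duct, was at 71.9, 74.5 and 77.6 CPM, or 52.3 ± 2.01 per kb, the highest HOX value per kb. HOXB8 followed at 33.9 ± 0.496 per kb, and HOXA10, of the uterus, and HOXC10 at 29.1 ± 1.50 and 28.8 ± 1.19 did not differ beyond their spread. HOXB9 was at 24.0 ± 0.388 per kb. The genes of paralogue number 13, the posterior end of the clusters, lay below HOXA9 and HOXA10, from 6.50 ± 0.611 for HOXB13 to 1.52 ± 0.233 for HOXA13.

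**Figure D4:**
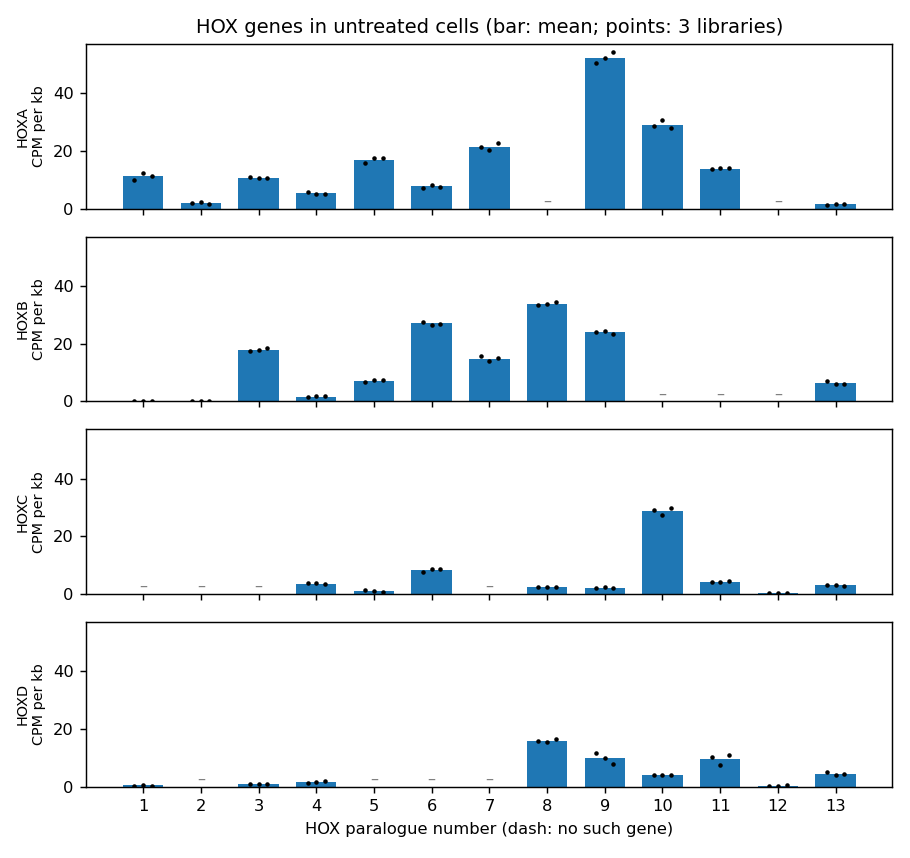
HOX genes by cluster and paralogue number, as CPM per kb, with bars for the mean and points for the 3 control libraries; a dash marks a number with no gene. The highest values are those of HOXA9 (52.3 per kb), HOXB8 (33.9 per kb), HOXA10 (29.1 per kb) and HOXC10 (28.8 per kb), and HOXB1 has no count.

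Other developmental families were expressed to differing extents. The share expressed lay above the 59.4% of all listed genes for Frizzled receptors only. It lay below for the SOX, PAX, GATA, FOX and Wnt ligand genes, least so for GATA and FOX. SOX4 (171.8 ± 7.78 CPM) and SOX9 (70.3 ± 1.33 CPM), a factor of gut and other progenitors, led 7 of 19 expressed SOX genes. PAX9 (20.1 ± 1.47 CPM) and PAX5 (2.12 ± 0.315 CPM) were the 2 of 9 PAX genes expressed. GATA2 (67.5, 67.3 and 69.6 CPM), GATA6 (20.7 ± 1.74 CPM) and GATA3 were expressed among 6 GATA genes, while GATA4 was trace at 0.0757 CPM. Of 51 FOX genes 25 were expressed, with FOXM1 at 219.3 ± 7.32 CPM and FOXK1 at 136.8 ± 5.94 CPM. For Wnt signalling, 9 of 10 Frizzled receptors were expressed, led by FZD5 (72.8 ± 1.38 CPM) and FZD7 (53.5 ± 1.48 CPM). Of 19 Wnt ligand genes 4 were expressed, with WNT7B at 11.9 ± 0.234 CPM.

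Receptor tyrosine kinases receive growth factor signals at the cell surface. Of 35 receptor tyrosine kinases, 18 were expressed (51.4%, against 59.4% of all genes) and 8 undetected. Per kb the order began with MET, the receptor for hepatocyte growth factor, at 156.4 ± 3.39, followed by AXL, the GAS6 receptor, at 99.3 ± 0.720 and EGFR at 42.4 ± 0.952. For the lengths used, each of these steps exceeded the SDs between libraries many times over. MET lay at 711.4, 741.8 and 719.7 CPM before the correction for length. EPHA2 was at 37.1 ± 1.47 per kb, ERBB3 at 20.8 and FGFR4 at 17.6, while ERBB2 (8.12 ± 0.122) and IGF1R (8.10 ± 0.130) did not differ beyond their spread. KIT and ERBB4 were trace, and ALK, ROS1, KDR and NTRK3 had no count.

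**Figure D5:**
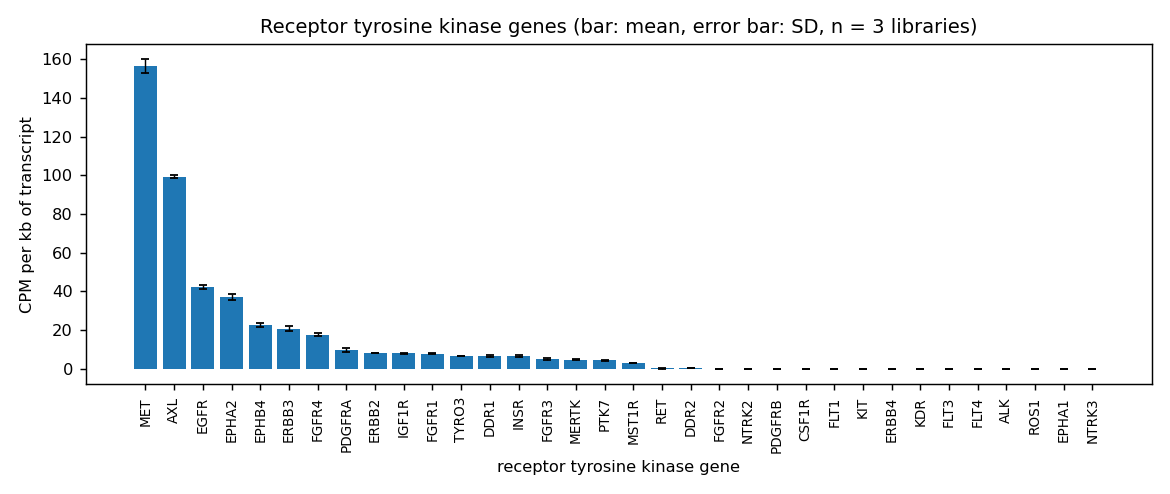
Receptor tyrosine kinases ordered by CPM per kb, with bars for the mean and error bars for the SD over the 3 control libraries. MET at 156.4 and AXL at 99.3 per kb stand above EGFR at 42.4 per kb and all others.

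Among 52 cytokine and growth factor genes, IGF2 had the highest level per kb. IGF2 (chr11:2129117-2149566), the fetal growth factor that signals through IGF1R and the insulin receptor, was at 2082.6, 1990.7 and 2019.3 CPM, rank 27 of all genes. Per kb it was at 664.8 ± 15.4, followed by MIF, a macrophage migration inhibitory cytokine, at 294.9 ± 27.6. IGF1 had no count. EGF and the neuregulin NRG1 also had no count, while TGFA at 96.3 ± 3.01 CPM and EREG at 71.0 ± 2.05 CPM, both EGFR ligands, were expressed. HGF, the ligand of MET, was trace at 0.0266 CPM. A list of 23 IGF and fetal growth genes was drawn up after the values were seen and so is given as a description. It had 19 members expressed (82.6%, against 59.4% of all listed genes) and 3 undetected. It included the binding protein IGFBP4 (307.8 ± 13.2 CPM), the clearance receptor IGF2R (158.2 ± 3.79 CPM), the adaptor IRS1 (310.6 ± 4.88 CPM), the mRNA-binding proteins IGF2BP3 (177.0 ± 9.55 CPM) and IGF2BP1 (143.7 ± 2.17 CPM), and the architectural factors HMGA1 (1255.7 ± 30.9 CPM) and HMGA2 (258.9 ± 1.52 CPM).

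Of the 52 cytokine and growth factor genes, 28 were expressed (53.8%) and 12 undetected (23.1%), shares near the 59.4% and 22.3% of all genes. MIF (276.9 ± 25.9 CPM) and TGFB1 (261.6 ± 6.88 CPM) followed IGF2 by CPM. IL6, CXCL1, CXCL10, IL1B and TNF had no count, and CXCL8 was trace at 0.350 CPM. Other immune ligands were expressed, among them CX3CL1 (21.8 ± 2.57 CPM), IL18 (18.5 ± 0.413 CPM), CCL28 (17.7 ± 0.813 CPM) and LIF (14.1 ± 0.486 CPM). Of 34 cytokine receptors 20 were expressed (58.8%, near the share of all genes), with the TNF receptor TNFRSF1A at 146.0 ± 1.70 CPM, the IL-6 family signal transducer IL6ST at 113.1 ± 4.19 CPM and the interferon receptor chain IFNAR1 at 86.1 ± 2.62 CPM. LPAR1, a receptor for lysophosphatidic acid, a lipid of ascites, was at 13.8 ± 0.760 CPM, and LPAR3 had no count. Of 20 type I and III interferon genes none was expressed and 18 were undetected.

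The cells carried the transcripts of division. All 29 cell cycle genes were expressed, against 59.4% of all listed genes, and 25 of them stood at 100 CPM or more. The replicative helicase subunit MCM4 was at 671.2 ± 11.5 CPM, the ribonucleotide reductase subunit RRM2 at 567.5 ± 4.43, the topoisomerase TOP2A at 482.4 ± 12.2 and the proliferation marker MKI67 at 423.2, 440.4 and 440.7 in the 3 libraries. All 30 homologous recombination and mismatch repair genes were expressed, from PARP1 at 297.0 ± 3.33 CPM to RAD51B at 3.34 ± 1.33. BRCA1 was at 63.9 ± 1.88 and BRCA2 at 48.9 ± 1.39 CPM. Transcript presence says nothing of mutation in these genes.

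Of 32 cancer driver genes 29 were expressed (90.6%, against 59.4% of all listed genes). Cyclin D1 (CCND1), which starts the passage through G1, was at 716.4, 705.3 and 711.4 CPM, while CCND2 had no count. CDK4 and CDK6, its partners, were at 209.6 ± 6.46 and 189.9 ± 10.5 CPM. CDKN2A, which inhibits these kinases, was at 191.0 ± 5.91 CPM, and RB1, which they phosphorylate, at 59.3 ± 2.37 CPM. MYC was at 7.23, 6.64 and 5.10 CPM, or 3.10 ± 0.539 per kb, far below CCND1 at 292.6 ± 2.29 per kb. MDM2, a ubiquitin ligase, was at 120.9, 121.8 and 119.3 CPM and the kinase inhibitor CDKN1A (p21) at 12.2 ± 0.936 CPM.

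Genes of class I antigen presentation were mostly expressed and those of class II mostly not. Of 15 class I genes 12 were expressed, including B2M at 384.8, 387.1 and 378.2 CPM and the transporter TAP2 at 62.7 ± 1.93 CPM. HLA-C was at 85.8 ± 3.24 CPM and HLA-B at 5.19, 3.69 and 4.38 CPM. HLA genes are polymorphic and alike, so the division of reads between them is uncertain. Of 10 class II genes 1 was expressed, the activator CIITA at 1.53 ± 0.425 CPM, and HLA-DRA had no count. Of 12 checkpoint ligands 6 were expressed, led by PVR (127.9 ± 3.43 CPM), NECTIN2 (106.8 ± 4.71 CPM) and CD276 (74.8 ± 0.995 CPM), and CD274 (PD-L1) was trace at 0.682 CPM. Cancer testis antigens were few, with 5 of 20 expressed and 12 undetected (60.0%, against 22.3% of all listed genes). MAGEA12 was at 52.3 ± 0.990 CPM, PRAME at 31.1, 27.3 and 30.3 CPM and the germline Argonaute PIWIL1 at 19.3 ± 1.17 CPM. Reads of MAGEA2 and its near-identical copy MAGEA2B are uncertain separately and summed to 137.5 ± 4.83 CPM.

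Of 20 surface proteins targeted by therapies in use or on trial, 8 were expressed (40.0%, against 59.4% of all genes). Besides MET, they included CD276, ERBB3 (68.5 ± 4.15 CPM), ERBB2 (35.3 ± 0.531 CPM) and tissue factor F3 (17.2 ± 1.39 CPM), while FOLR1, MSLN and MUC16 were trace and SLC34A2 had no count. Of 13 drug efflux and platinum transport genes 11 were expressed (84.6%). The organic anion pumps ABCC4 and ABCC2 were at 180.4 ± 2.73 and 142.0 ± 4.28 CPM, the multidrug pump ABCB1 at 22.6 ± 1.33 CPM and the copper and platinum importer SLC31A1 at 89.5 ± 1.71 CPM.

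Metabolic genes were broadly expressed, against 59.4% of all listed genes. All 21 glycolysis genes were expressed, and they held 1.95% ± 0.0148 of counts, with LDHA (1706.9 ± 6.65 CPM) and LDHB (1136.1 ± 14.2 CPM), the subunits of lactate dehydrogenase, both high. All 38 genes of respiratory complex I and all 17 of ATP synthase were expressed. Of 14 cytochrome c oxidase genes 9 were expressed (64.3%, near the share of all listed genes) and 4 were undetected. Of 29 PPAR and lipid handling genes 27 were expressed (93.1%). The desaturase SCD was at 1381.4 ± 10.0 CPM and fatty acid synthase FASN at 584.6 ± 13.2 CPM. The lipid chaperone FABP5 was at 403.0 ± 4.51 CPM and the carnitine transferase CPT1A, a PPAR target, at 219.1 ± 6.08 CPM. LPL, the extracellular lipase, had no count, and the fatty acid transporter CD36 was trace at 0.167 CPM. PDK4 and ANGPTL4, PPAR targets, were at 8.29 ± 0.346 and 18.9 ± 0.945 CPM.

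The receptors that fibrates act on were unequal before any drug. PPARG was at 90.4, 88.3 and 91.6 CPM, or 47.9 ± 0.893 per kb, while PPARA was at 4.44, 4.65 and 5.42 CPM, or 0.485 ± 0.0519 per kb. The PPARA value rests on a transcript length of 9965 bases. PPARD was at 9.87 ± 0.811 CPM, and RXRA, the partner receptor, at 64.6 ± 4.75 CPM. In all, 21 of 32 nuclear receptors were expressed (65.6%, near the 59.4% of all listed genes). They included NR2F6 (183.9 ± 8.79 CPM), NR2F2 (155.0 ± 6.23 CPM), ESRRA (144.5 ± 4.62 CPM) and the glucocorticoid receptor NR3C1 (76.6 ± 1.91 CPM). The steroid receptors ESR1 and ESR2 were trace and PGR had no count.

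Matrix and adhesion families were expressed in part, at shares on either side of the 59.4% of all listed genes. These were 48.1% of proteoglycan and secreted matrix genes, 34.1% of collagens, 66.7% of laminins and 53.8% of integrins. Versican (VCAN, 444.4 ± 17.7 CPM), perlecan (HSPG2, 141.4 ± 11.1 CPM) and lumican were expressed among 13 of 27 proteoglycan and secreted matrix genes, while OGN, FMOD and GPC3 had no count. Of 44 collagens 15 were expressed, led by COL5A2 (351.7 ± 2.27 CPM), COL6A1 (279.1 ± 6.58 CPM) and COL7A1 (205.3 ± 10.2 CPM), and fibrillar COL1A1 was at 6.25 ± 0.700 CPM. Laminins of basement membrane were expressed in 8 of 12 cases, led by LAMB1 (465.5 ± 4.43 CPM) and LAMA5 (339.2 ± 10.9 CPM). Integrins were expressed in 14 of 26, led by ITGB1 (845.0 ± 24.6 CPM) and ITGAV (564.5 ± 6.85 CPM).

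Families known from other organs were not expressed. None of 390 olfactory receptors was expressed and 371 were undetected, and all 390 summed to 2.12 to 2.39 CPM. None of 94 keratin-associated proteins of hair was expressed, with 92 undetected, nor any of 38 beta-defensins, with 36 undetected. Apart from these families, replication-dependent histones, whose transcripts lack a poly(A) tail, had 26 of 66 expressed (39.4%, against 59.4% of all genes). None stood at 100 CPM or more, and what set these levels was not tested. All cell cycle genes on the list were expressed.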

How the data were processed

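RNA was sequenced from cells labelled CAOV3, and the 3 control libraries were used. The authors deposited whole-number counts per gene. Per the submitters' processing notes, Trimmomatic 0.39, STAR 2.7.9a, RSEM 1.3.3, DESeq2 1.28.1 and GRCh38 were used; their roles, the annotation and the strandedness are not given in the sources used here. If RSEM made the deposited counts, they are rounded estimates, and reads of near-identical or overlapping genes were divided by its model. All else was computed here: CPM from library totals, means and SDs over 3 libraries, presence calls (1 CPM; floor of 3 counts), CPM per kb (GENCODE 29 lengths for 19505 genes, 99.1%), and dispersion with edgeR 4.0.16 in R 4.3.3, tested on simulated data. No groups were compared and no gene was tested.

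The members and lists were chosen with earlier results of these data known, and 2 lists (gut and liver, IGF axis) after levels were seen. Named genes were the 30 highest by CPM, per list the 5 highest, those at 100 CPM or more, the undetected and textbook members, per family the 3 highest, and the 5 most variable at 10 CPM or more; a few further list members were named after their values were seen. Alternatives changed the presence threshold, the library size (TMM, DESeq2 1.42.0 size factors), the libraries and the length. A few list members and 1 list are not reported here.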

Additional observations from a re-analysis of the deposited data

How the results depend on the processing

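The number of expressed genes, 11692 in the report, was 12187, 11123 and 10232 at thresholds of 0.5, 2 and 5 CPM, 11921 by the mean, and 11692 with TMM and with DESeq2 size factors. Leaving out each library in turn gave 11764 to 11768 expressed and 4712 to 4745 undetected genes. Undetected genes numbered 5778 when up to 3 counts in all were allowed. Without ribosomal protein genes the 10, 100 and 1000 highest genes held 5.09%, 17.2% and 48.4% of counts, and without the 10 highest genes the ribosomal share was 7.67%. Of the 30 highest genes by CPM, 13 stayed among the 30 highest per kb, and 14 with the length of the union of exons, an alternative chosen after seeing the data. Members expressed per list changed by over 1.5 times in 29 of 657 alternatives, 27 of them threshold changes and 2 without control replicate 2, where 1 taste receptor and 1 kallikrein-related gene passed instead of 0. At 5 CPM no ciliated, mesothelial, follicle or class II gene remained expressed, and 3 of 66 histones did. The mean CPM of the 30 highest genes moved by at most 1.86% under TMM, DESeq2 size factors and leaving out each library. No paired analysis was possible because no groups were compared and no test was run. Depth limits genes under about 1 CPM, where a level rests on few reads.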

Other observations

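Among listed genes placed on an autosome by symbol, the share expressed ranged from 47.6% on chromosome 21 to 68.4% on chromosome 15. The 59.4% over all listed genes also counts genes left out here, such as those without a matched symbol, so it is not the reference for these shares. These are descriptions of the listed genes, with no test.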
